A study of Mus musculus with 8 samples.

Results

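Interleukins are secreted proteins through which leukocytes, epithelium and stroma signal to each other, and each acts on a cell by joining a few receptor chains at its surface. Many of the chains are shared, so that the common gamma chain serves a whole group of T-cell growth factors, gp130 (Il6st) serves the interleukin-6 group, and an accessory chain serves most of the interleukin-1 group. The common gamma chain, interleukin-6, interleukin-12 and interleukin-10 groups signal through JAK kinases and STAT factors, whereas the interleukin-1 group signals through MyD88 and IRAK kinases, and the interleukin-17 group through Traf3ip2 and Traf6.

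The genes described here are those on the array whose symbol is Il followed by a digit, with Ilf and Ilk genes left out. There were 84 of them among the 21597 symbols on the array, carried by 126 probes and 189 spots. Within the interleukin families, 39 were counted as ligands or soluble binding proteins and 41 as receptor chains. Il22ra2, a secreted binding protein, is counted among the receptor chains by its name. The 4 others, which carry the name but lie outside these families, were kept apart (Il16, Il4i1, Il8ra and Il8rb). The symbols are those of the files. In current nomenclature Il28 is Ifnl3, Il28ra is Ifnlr1, Il8ra is Cxcr1 and Il8rb is Cxcr2, so the last pair are chemokine receptors. Probe positions in the files are on the mouse build mm8. None of the 126 probes (0) lies on chromosome 17, which holds the H2 locus.

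Pancreas RNA from 8 female NOD mice aged 12 weeks, a strain that develops autoimmune diabetes, was hybridized to 8 two-color arrays, 1 mouse per array. Each mouse was labeled red (Cy5), and the green dye (Cy3) carried the same pancreas pool on all arrays, made from 8 age-matched NOD.B10 mice. NOD.B10 mice carry the H2b haplotype on the NOD background and do not become diabetic, and because they were pooled, no spread between NOD.B10 mice was measured. Mice 1 to 4 were on 1 slide of 4 arrays and mice 5 to 8 on a second slide, and the dyes were never exchanged, so a dye effect and a strain difference at a probe cannot be told apart.

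In this report a log2 ratio is always NOD over NOD.B10, so that a value below 0 is lower in the NOD mouse. A dye was counted as detected for a gene when the scanner software flagged a probe of it as well above background in at least 4 of the 8 arrays. Over all spots, red was well above background in 21.6% to 35.3% and green in 57.6% to 60.7% of an array. Red was weakest on arrays 5, 7 and 8 of slide 2 (27.2%, 25.8% and 21.6%). Where a signal did not rise above background the software put a stand-in value in its place (42.9% to 54.0% of red spots), and it set some ratios of weak spots to 0, so that a ratio of exactly 0 is not a measurement of equal expression. Acinar markers, as defining genes of the tissue, were detected in red for 7 of 8 genes.

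Most interleukin genes were at or below the detection limit of the NOD dye in the whole pancreas. Red was detected for 18 of 84 genes (21.4%), against 9579 of the 21597 genes on the array (44.4%). Green was detected for 48 (57.1%), against 70.8% of all genes. The 18 genes detected in red were also detected in green, 30 were detected in green only and 36 in neither dye. The plot of detection by role splits these counts. Red was detected for 13 of 41 receptor chains (31.7%) and 5 of 39 ligands and binding proteins (12.8%), and green for 30 (73.2%) and 15 (38.5%). These shares describe probes as well as genes, since probes differ in how brightly they hybridize.

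**Figure D1:**
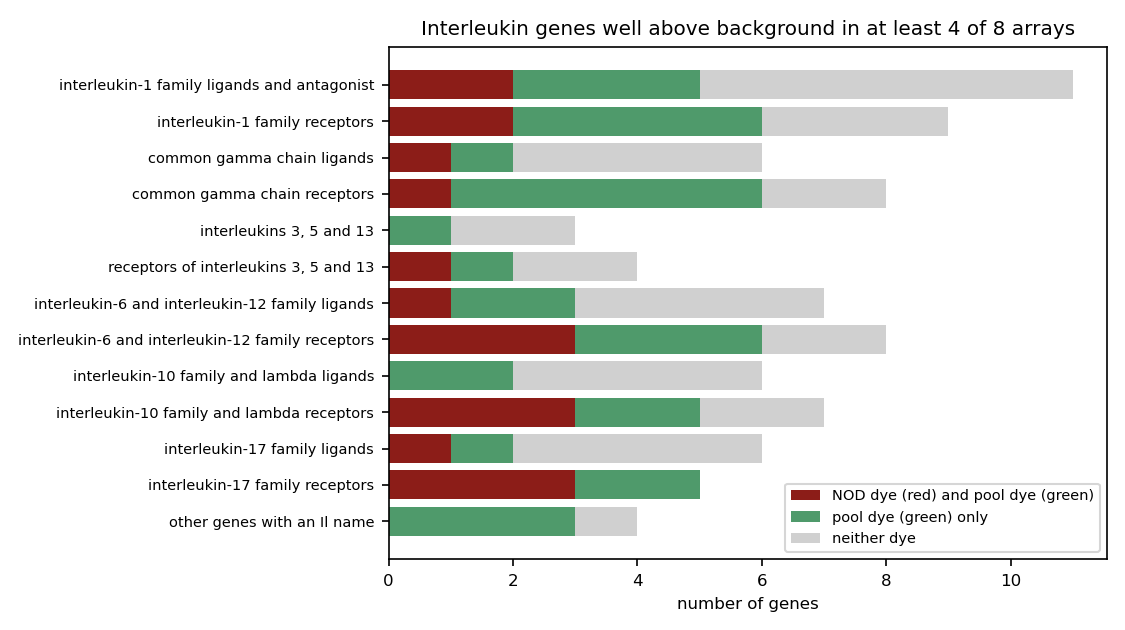
Number of interleukin genes (x axis) in each functional group (y axis) that were well above background in at least 4 of 8 arrays in both dyes, in the green NOD.B10 dye only, or in neither. All 5 interleukin-17 receptors were detected in green, 3 of them also in red, whereas 4 of 6 interleukin-17 family ligands were in neither dye.

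The 5 ligands and binding proteins detected in red were Il15, Il17d, Il18bp, Il27 and Il33. Several well-known inflammatory and T-cell cytokines were not among them. Il1b, an inflammatory product of myeloid cells, Il4 and Il10, which restrain inflammatory T-cells, Il6, an acute-phase inducer, and Il12b, a subunit of interleukin-12 and interleukin-23, were each printed as 10 spots on every array, yet red was well above background in 0 of 80 spots for each. Green reached that level in 7 spots of 80 for Il1b, 4 for Il10, 2 for Il4, 2 for Il12b and 0 for Il6. The ratio of these spots was exactly 0 for 71 of 80 (Il6), 64 (Il10), 55 (Il4), 51 (Il12b) and 42 (Il1b). Their mean log2 ratios over the 8 mice lay between 0.03 and 0.11, with adjusted p between 0.412 and 0.709 in limma, and no difference was detectable at this signal. With background-subtracted, centered signals the same 5 genes came out at 1.63 to 2.63 (adjusted p from 4.68e-07 to 1.02e-05 in limma). Il17a, the product of Th17 cells, and Il21, a follicular helper T-cell cytokine, were at ratio 0 in all 8 mice on their single probes, and Il7, a lymphocyte survival factor made by stroma, was at 0 on 2 of its 3 probes in all mice. None of these (Il17a, Il21 and Il7) had enough red signal to be tested. In all, 8 genes were at 0 in every mouse on every probe.

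The test asked whether the mean log2 ratio of the 8 mice differed from 0, with limma's moderated one-sample test on every probe whose red signal reached 25 in at least 4 arrays (28105 probes, 85 of them for 68 interleukin genes), and p-values adjusted over all of them by Benjamini-Hochberg. A gene stands for its brightest tested probe and was called when it changed at least 2-fold with an adjusted p under 0.01. No interleukin gene (0 of 68) was called higher in NOD, where 0.31% of all probes were, and 3 had an unadjusted p under 0.05 in that direction. Il2 alone was called lower, 1 of 68, where 1.41% of all probes were. At an adjusted p under 0.05 with no limit on size, 8 of the 68 passed (11.8%), 1 higher and 7 lower, against 21.3% of all genes tested. Of the 68, 27 had a mean above 0, 37 below 0 (54.4%) and 4 at 0, against 58.7% of all genes below 0. The median interleukin log2 ratio was −0.06 and that of all genes −0.08.

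A further 6 members passed a looser rule, an adjusted p under 0.05 with a change of at least 1.5-fold on a tested probe, which 10.1% of all probes pass. These were Il21r, Il1r2, Il1f10, Il28, Il17f and the second probe of Il17ra, of which Il21r alone was higher in NOD. Only Il21r among them was detected in red. On their brightest probes Il17rc and Il18 also passed an adjusted p of 0.05, with changes under 1.5-fold.

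Il2 encodes interleukin-2, the growth factor of T-cells on which regulatory T-cells depend, and its main probe is at chr3:37317122-37317280 on the minus strand. The log2 ratios of mice 1 to 8 were −1.31, −0.63, −1.18, −1.11, −1.20, −1.38, −1.11 and −0.94. All 8 mice were below the pool, mouse 2 being nearest to it. The mean was −1.11 ± 0.23 (SD, n = 8), or 46.5% of the pool, with an adjusted p of 0.000407 in limma and an exact two-sided sign-flip p of 0.007812, the smallest that 8 mice allow. Both slides were low, with means of −1.06 and −1.16. The second Il2 probe was too weak in red to be tested and had a mean of −0.89 ± 0.83.

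These values for Il2 came from faint spots. The probe was printed 10 times per array, which gave 80 spots, of which 76 had a ratio below 0. Green was well above background in 76 of the 80 and red in 0, and 40 red values were stand-ins. Median processed signals per array were 58.2 to 101 in green and 28.2 to 50.9 in red, as the plot of single spots shows, and within an array the log2 ratios of the 10 spots had an SD of 0.38 to 0.85. Many other probes on these arrays had red as faint. Among 2381 probes with green well above background in 8 arrays, red in 0 and stand-in red values in at least 4, the median log2 ratio was −0.56 and 9.49% were called lower. Of the 24 such probes that were printed as 10 spots, 12.5% were called lower, their ratios running from −1.30 to −0.15, and Il2 was among the 3 lowest. Choosing probes with green always and red never detected favors ratios below 0, so these shares only describe the set. Not all such probes lie below 0, as Il27ra (0.41) and Il16 (0.40) meet the same rule. From the spots with a measured red value alone, an alternative chosen after the data were seen, Il2 was at −0.57, −0.49, −1.01, −0.89, −0.88, −1.36, −1.10 and 0.20 in mice 1 to 8. Mouse 8, with 1 such spot, was above the pool and the other 7 below it. The mean was −0.76 ± 0.48, or 59.0% of the pool (exact two-sided sign-flip p = 0.0156), which is less than 2-fold. Leaving out stand-ins selects spots by their red signal. The stand-ins were not always the dimmer spots, since in mouse 7 they reached 64.6 and measured red values 39.6. The Il2 call also did not hold under 2 other treatments of the same scans. With normexp background correction and loess the mean was −0.04 (adjusted p = 0.298 in limma), and with background-subtracted, centered signals it was −0.35 (adjusted p = 0.196).

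**Figure D2:**
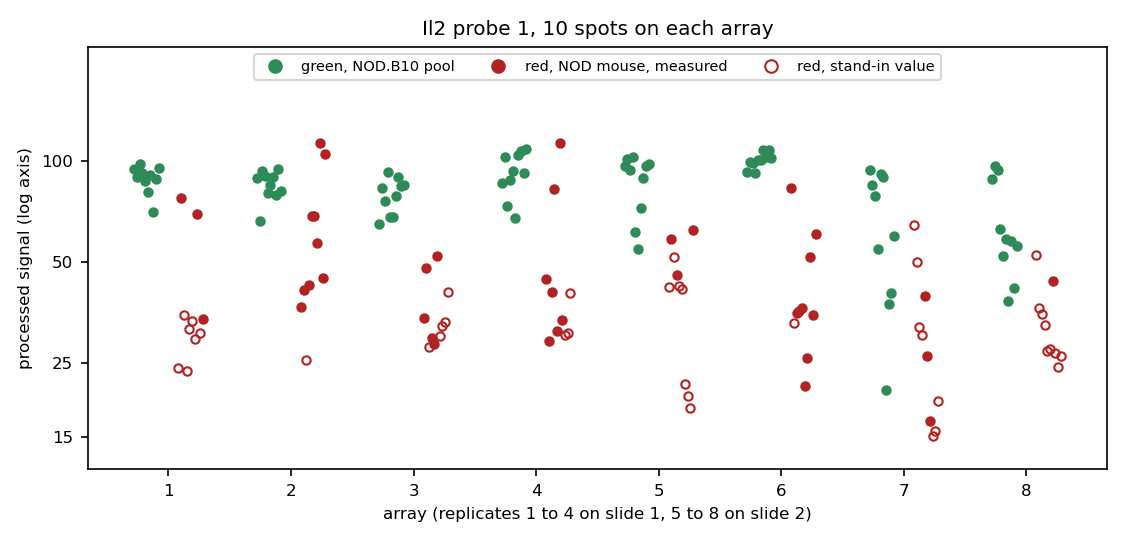
Processed signal (log axis) of the 10 Il2 spots on each of the 8 arrays (x axis), green for the NOD.B10 pool and red for the NOD mouse, open where the red value is a stand-in. Most green spots lie above the red ones on each array, the array medians being 58.2 to 101 in green and 28.2 to 50.9 in red, and 40 of the 80 red points are open.

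The receptors of the common gamma chain group lay mostly above 0. They pass the signals of interleukins 2, 4, 7, 9, 15 and 21 to lymphocytes, and 6 of the 8 chains had a mean above 0, with a median of 0.37, against −0.08 for all genes, of whose tested probes 34.5% were above 0. Of the 8, 1, Il21r, passed an adjusted p of 0.05, where 21.3% of all genes did, and none was called (0 of 8).

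Il21r, the receptor chain for interleukin-21 on T-, B- and NK cells, had log2 ratios of 0.59, 0.39, 0.56, 0.55, 0.96, 0.80, 0.56 and 0.81 in mice 1 to 8. All 8 NOD mice were above the pool, and the slides overlapped. The mean of 0.65 ± 0.19 (SD, n = 8), a 1.57-fold difference, had an adjusted p of 0.0011 in limma and an exact sign-flip p of 0.007812. Red was well above background in 6 arrays and green in 8, with mean signals of 284 and 178, and none of the values was a stand-in. The difference kept its direction but shrank to 0.15 with normexp and loess (adjusted p = 0.0315), and it was 0.61 with centered signals (adjusted p = 0.0113). Over all 9 alternative fits the adjusted p of Il21r was 0.000563 to 0.0315, and with any 1 mouse left out 0.00235 to 0.00435.

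Il2rb, the beta chain that interleukins 2 and 15 share, had the highest mean of any member that was tested. The ratios of mice 1 to 8 were −0.25, 1.93, 2.58, 2.85, 0.00, 1.91, 0.97 and −0.65. Mice 2, 3, 4, 6 and 7 were above the pool, whereas mice 1 and 8 were below it and mouse 5 was at 0. The mean of 1.17 ± 1.34 (SD, n = 8) did not differ from 0 beyond this spread (adjusted p = 0.113 in limma, exact sign-flip p = 0.0625), and red was well above background in 3 arrays.

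The other chains of the group were weaker or varied in sign. Il2rg, the common gamma chain itself, was at 0.42 ± 0.74 (adjusted p = 0.281), with 4 mice at exactly 0. Il7r, the interleukin-7 receptor of naive and memory T-cells, was at 0.45 ± 1.35 on its brightest probe (adjusted p = 0.519), and red was detected in 0 arrays on each of its 3 probes. With centered signals Il2rb, Il2rg and Il7r were called higher, at 1.38, 1.15 and 2.18 (adjusted p = 0.00209, 0.000948 and 1.37e-06 in limma), whereas with normexp and loess they were at 0.15, −0.02 and 0.14 and none passed (adjusted p = 0.232, 0.836 and 0.161). Il2ra (Cd25), the high-affinity chain of regulatory and activated T-cells, was at 0.08 ± 0.86 (adjusted p = 0.904). The Il15ra chain was at 0.32 ± 0.72 on 1 probe and −0.66 ± 0.69 on another, of which neither passed the test (adjusted p = 0.403 and 0.0861). Il4ra, shared by the interleukin-4 and interleukin-13 receptors, was at −0.58 ± 0.61 (adjusted p = 0.089), with mouse 4 alone above 0.

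T-cell markers lay mostly on the same side of 0 as Il21r and Il2rb. Of 12 T-cell markers, 9 had a mean above 0, 4 of them with an adjusted p under 0.05 (Cd3d, Cd3e, Cd5 and Lck, against 21.3% of all genes in either direction), and the list's median was 0.60. The median over the list was between 0.18 and 0.77 in single mice, highest in mouse 4 and lowest in mouse 7, and red was detected for 5 of the 12. The part of T-cell number in the receptor values was not tested, and in bulk tissue a change in the number of cells and a change in RNA per cell cannot be told apart.

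**Figure D3:**
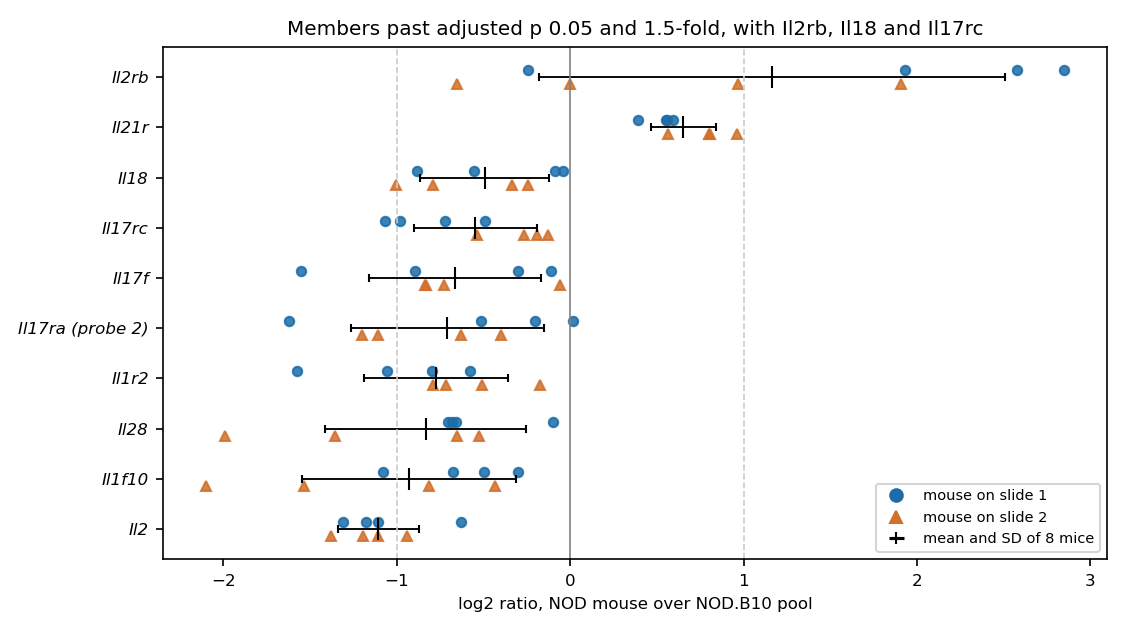
Log2 ratio of NOD mouse over NOD.B10 pool (x axis) in each mouse, for the members past an adjusted p of 0.05 and 1.5-fold, and for Il2rb, Il18 and Il17rc; bars give mean and SD of 8 mice, and dashed lines mark 2-fold. The 8 points of Il21r lie between 0.39 and 0.96 and those of Il2 between −1.38 and −0.63, whereas Il2rb runs from −0.65 to 2.85.

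Among common gamma chain ligands, Il15, which maintains memory CD8 T-cells and NK cells, was the only gene detected in red. Its ratios in mice 1 to 8 were 0.28, 0.17, −0.06, 0.00, −1.49, 0.40, 0.36 and 0.40. Mouse 5 was far below the others, and it was also the mouse whose red value on this probe was a stand-in. The mean was 0.01 ± 0.63 (adjusted p = 1 in limma). Il4, at 0.05 ± 0.24, and the untested Il7, Il9 and Il21 complete the group with Il2.

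In the interleukin-1 group, 8 ligands and binding proteins and 8 receptors were tested, and 3 of these genes passed an adjusted p of 0.05, near the 21.3% of all genes that pass. All 3 were lower in NOD and none was detected in red. Il1r2 is the decoy receptor that binds interleukin-1 without signaling. Its ratios in mice 1 to 8 were −0.58, −0.79, −1.06, −1.58, −0.17, −0.72, −0.51 and −0.79. On this probe all mice were below the pool, mouse 4 the most and mouse 5 the least. The mean of −0.77 ± 0.41 (SD, n = 8) had an adjusted p of 0.00932 in limma, and 5 of 8 red values were stand-ins. It was −0.04 with normexp and loess and −0.20 with centered signals, neither past the test (adjusted p = 0.350 and 0.434). A second Il1r2 probe, too faint in red to be tested and with 7 stand-in values, was at 0.12 ± 1.11, with mouse 1 at 2.66 and 4 mice at 0.

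Il1f10 (interleukin-38), a ligand of the interleukin-1 group, had ratios of −0.30, −0.49, −1.08, −0.68, −2.10, −0.81, −0.43 and −1.54. Again all 8 were below 0, with mice 5 and 8 lowest. The mean of −0.93 ± 0.62 (adjusted p = 0.0204 in limma) kept its direction with centered signals (−0.92, adjusted p = 0.00241), whereas with normexp and loess it was −0.13 (adjusted p = 0.0811). Il18, an interferon-gamma inducer that epithelium and macrophages store as a precursor, was printed as 10 spots. Its ratios in mice 1 to 8 were −0.88, −0.55, −0.04, −0.09, −1.0, −0.33, −0.25 and −0.79. All mice were below 0, mice 3 and 4 only just. The mean was −0.49 ± 0.37 (adjusted p = 0.0317), 57 of 80 spots were below 0, and 22 red spot values were stand-ins. The Il18 mean was −0.02 with normexp and loess, −0.29 with centered signals and −0.48 with irregular spots left out, none past the test (adjusted p = 0.717, 0.199 and 0.0669).

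The soluble inhibitor of interleukin-18, Il18bp, was detected in red and was at 0.53 ± 0.72 on its brighter probe (adjusted p = 0.173) and 0.05 ± 0.68 on the other. Mouse 5 was at −1.10 on the brighter probe and the other 7 between 0.34 and 1.39, so the spread exceeded the mean. Without mouse 5, Il18bp was at 0.76 (adjusted p = 0.009 in limma). That mouse was singled out after its value was seen, and its red value was measured, not a stand-in. With all mice the probe was at 0.13 with normexp and loess and 0.003 with centered signals. Neither passed the test (adjusted p = 0.135 and 0.993 in limma). Il33, an alarmin of stromal and epithelial nuclei, was at −0.09 ± 0.69 (adjusted p = 0.848), and this mean covered 2 opposite slides. The mice of slide 1 lay between 0.37 and 0.69 and those of slide 2 between −1.04 and −0.11. The slides did not overlap for Il33, and slide and any difference between these mice cannot be told apart.

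Of the interleukin-1 receptors, Il1r1, the signaling receptor, was at 0.30 ± 0.38 (adjusted p = 0.154), and Il1rapl1, a neuronal relative of the accessory chain, at 0.07 ± 0.23 (adjusted p = 0.590), both detected in red in 7 arrays. Il1rl1 (ST2), the receptor of interleukin-33, was at −0.48 ± 0.81 (adjusted p = 0.267). Il1rap, the shared accessory chain, was at −0.30, −0.37 and −0.11 on its 3 tested probes and at 0 in all mice on 2 more. Il18r1 was at 0.25 ± 0.62, and both probes of Il18rap were at 0 in all mice. The antagonist Il1rn had too little red signal to be tested on either of its 2 probes, which stood at −0.34 and 0.32.

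Of the 5 interleukin-17 receptors, 3 were detected in red and all 5 in green, and 1, Il17rc, passed an adjusted p of 0.05 on its brightest probe, a share near the 21.3% of all genes. Il17rc pairs with Il17ra to bind interleukin-17A and interleukin-17F. Its brightest probe, at chr6:113448848-113448907 on the plus strand, gave −0.49, −0.98, −1.07, −0.72, −0.12, −0.54, −0.26 and −0.19 in mice 1 to 8. All mice were below the pool, and those of slide 1 (mean −0.82) lay mostly lower than those of slide 2 (mean −0.28). The mean was −0.55 ± 0.35 (SD, n = 8), 68.4% of the pool, with an adjusted p of 0.0189 in limma and red and green signals of 2776 and 4029, far from the detection limit. A neighboring probe gave −0.52 ± 0.32 (adjusted p = 0.0167), but −0.27 with normexp and loess and −0.41 with centered signals, neither past the test (adjusted p = 0.120 and 0.113).

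Il17rc was the brightest gene of those that passed an adjusted p of 0.05, and its brightest probe was lower under both other treatments of the scans, at −0.98 with normexp and loess (adjusted p = 0.00425) and −1.27 with centered signals (adjusted p = 0.000402). Its adjusted p was 0.000402 to 0.0304 over all 9 alternative fits and 0.0205 to 0.0502 with 1 mouse left out, the highest without mouse 4. The third Il17rc probe ran the other way on slide 1. It was at 1.41, 1.25, 0.07 and 1.37 in mice 1 to 4 and −0.32, −0.66, −0.96 and −1.76 in mice 5 to 8. This probe is annotated on the minus strand, opposite to the other 2, and had a mean red signal of 125 against 2776 on the brightest one. Its mean of 0.05 ± 1.19 (adjusted p = 0.991) hides slides that did not overlap.

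Il17ra, the chain common to the receptors of this family, had 2 probes of near-equal brightness that were detected in green only. The brighter was at −0.20 ± 0.36 (adjusted p = 0.299). The second had ratios of −0.20, 0.02, −1.62, −0.52, −0.63, −1.20, −0.40 and −1.11 in mice 1 to 8. Mouse 2 stood near 0 and mouse 3 was lowest. The mean of −0.71 ± 0.56 passed the test (adjusted p = 0.0358 in limma), with 5 stand-in red values against 3 on the brighter probe. It was −0.05 with normexp and loess and −0.56 with centered signals, neither past the test (adjusted p = 0.659 and 0.0663). Il17rb, which binds interleukin-25, was at −0.94 ± 0.87 (adjusted p = 0.0592), with mouse 6 above 0. A second Il17rb probe, too faint in red to be fitted with the others, was at −0.75 ± 0.39, below 0 in all 8 mice. Its red was detected in 0 arrays, with 6 stand-in values, and its green in 6. A stand-in red against a detected green favors ratios below 0, so this probe is no separate support. Il17rd was at 0.10 ± 0.27 (adjusted p = 0.499) on its brightest probe, at 0.10 on a second and at −0.82 ± 0.71 on another that was too faint to be tested, and Il17re, which binds interleukin-17C, at −0.05 ± 0.45 (adjusted p = 0.854).

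Il17f, a product of Th17 cells and innate lymphocytes, had ratios of −0.30, −1.55, −0.11, −0.90, −0.83, −0.73, −0.84 and −0.06 in mice 1 to 8. All 8 mice were below the pool, mice 3 and 8 by little. The mean was −0.66 ± 0.49 (adjusted p = 0.0303 in limma), but it was 0.03 with normexp and loess and 0.02 with centered signals. Il17d, a ligand of the family that many tissues other than lymphocytes make, was detected in red in all 8 arrays and stood at −0.08 ± 0.34 (adjusted p = 0.637), with mouse 7 at −0.82.

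In the interleukin-6 and interleukin-12 group, Il27 was the only ligand detected in red. It encodes the p28 subunit of interleukin-27, which acts on T-cells. Its ratios were 0.01, 0.14, 0.22 and −0.20 in mice 1 to 4 and 1.01, 0.82, 1.04 and 0.44 in mice 5 to 8. Every mouse of slide 2 lay above every mouse of slide 1, with slide means of 0.83 and 0.04. The overall mean of 0.43 ± 0.47 did not pass the test (adjusted p = 0.098 in limma), and it turned negative under both other treatments of the scans (−0.22 and −0.42). With slide as a term in the fit its adjusted p was 0.0103. Its partner Ebi3 was at −0.18 ± 0.76 and its receptor Il27ra at 0.41 ± 0.61 (adjusted p = 0.205).

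Il11ra1, the receptor of interleukin-11, was the brightest member, with red and green signals of 13460 and 14490. Its brightest probe was at −0.10 ± 0.23 (adjusted p = 0.403). A second Il11ra1 probe next to it was at −0.40 ± 0.26 (adjusted p = 0.0193), with 7 of 8 mice below 0 and mouse 8 at 0.04. It was at −0.76 with normexp and loess (adjusted p = 0.0154) and −1.02 with centered signals (adjusted p = 0.00292), where the brightest probe was at −0.10 and −0.24. Close copies of this gene lie beside it in the mouse genome, and which copy gave these signals cannot be told apart here. Il6st, the gp130 chain, was at −0.10 ± 0.58 (adjusted p = 0.751). Il6ra was at −0.36 ± 0.50 (adjusted p = 0.182), with mice 7 and 8 at −1.07 and −1.21 and the other mice between −0.36 and 0.07. Il11 was detected in green only and was at 0.45 ± 0.65 (adjusted p = 0.195), and Il12a, the p35 subunit, at −0.06 ± 0.80.

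The interleukin-10 and lambda group had 3 receptors and no ligand (0 of 6) detected in red. Il10rb, the accessory chain for interleukins 10, 22 and lambda, was the second brightest member and was nearly equal in NOD and pool, at 0.05 ± 0.13, between −0.14 and 0.26 in single mice (adjusted p = 0.499). That value was not stable to processing, since Il10rb was at −0.67 with normexp and loess and −0.85 with centered signals (adjusted p = 0.0463 and 0.0177). Its other probe was at background, with a red signal of 22.8 against 5256. Il20rb was at −0.04 ± 0.35 (adjusted p = 0.871). Il28ra, the lambda receptor, was at −0.25 ± 0.78 (adjusted p = 0.532), with the mice of slide 1 between 0.05 and 0.52 and those of slide 2 between −1.99 and −0.28.

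Il28 (interferon lambda), an antiviral ligand, had ratios of −0.71, −0.10, −0.68, −0.66, −1.36, −1.99, −0.65 and −0.53 in mice 1 to 8. All 8 mice were below the pool, mice 5 and 6 the most. The mean of −0.83 ± 0.58 passed the test (adjusted p = 0.0239 in limma) with a mean red signal of 31.5, but it was 0.02 with normexp and loess and 0.53 with centered signals.

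In the interleukin-3, 5 and 13 group, Il3ra alone was detected in red, at 0.04 ± 0.30 (adjusted p = 0.817). The mice of slide 1 were all below 0 and, apart from mouse 5 at −0.03, those of slide 2 above it. Il13, a type 2 cytokine, was at −0.69 ± 0.94 (adjusted p = 0.170), with mouse 8 above 0. Of the 4 other genes, Il16, a lymphocyte chemoattractant, was at 0.40 ± 0.85 and Il4i1, an amino acid oxidase of antigen-presenting cells, at −0.40 ± 0.72, neither past the test (adjusted p = 0.380 and 0.300).

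Among the 18 genes detected in red, 2 passed an adjusted p of 0.05 on their brightest probe, Il21r and Il17rc, and none was called (0 of 18), where 25.6% of the tested probes detected in red passed that level and 0.521% and 0.231% were called higher and lower. The mice of slide 1 and slide 2 did not overlap for 5 of the 18, Il27 and Il3ra (higher on slide 2) and Il17d, Il28ra and Il33 (higher on slide 1), as the plot of these genes by mouse shows. The same held for 21.1% of all tested probes with red detected in at least 4 arrays. Il28ra, Il18bp and Il33 just reached the detection limit, with red above background in 4 arrays, and Il4ra, Il15ra and Il2rb just missed it, with 3.

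**Figure D4:**
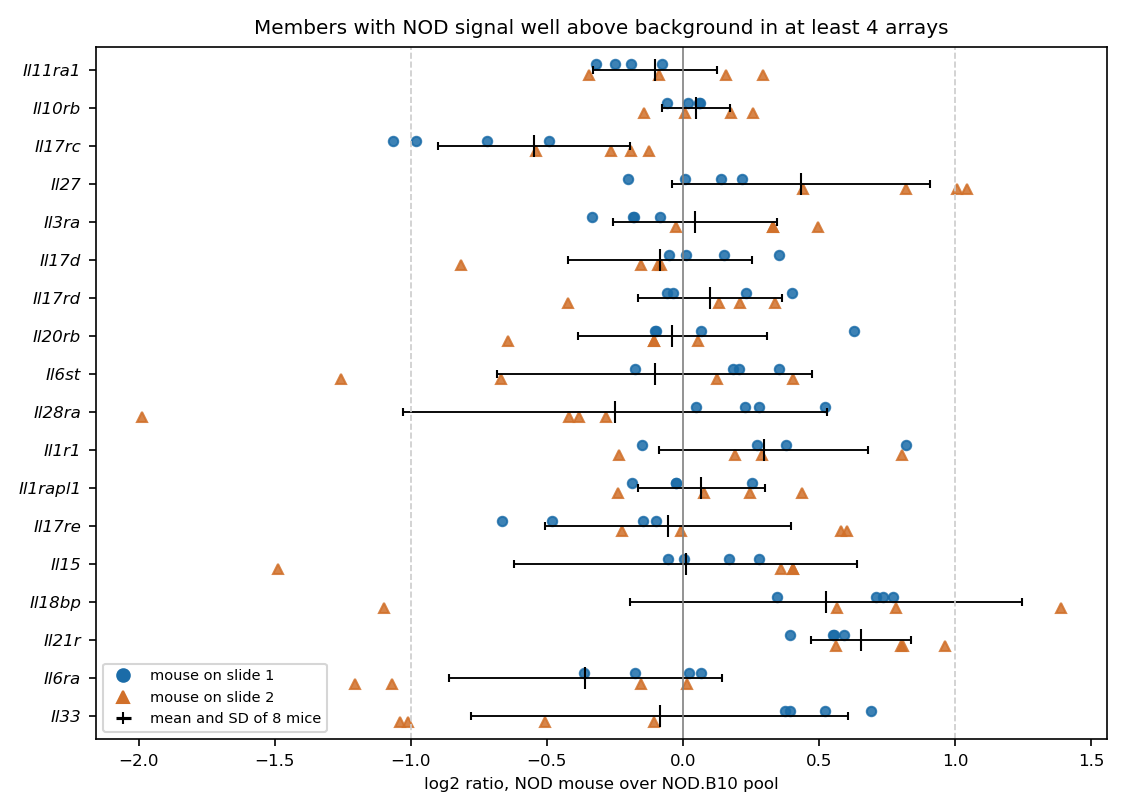
Log2 ratio (x axis) in each of the 8 mice for the 18 genes detected in red, ordered from the brightest (top) to the dimmest, circles for slide 1 and triangles for slide 2, with mean and SD. The SD is 0.23 for Il11ra1 at the top and 0.69 for Il33 at the bottom, but 0.19 for Il21r near the bottom. The slides separate for Il27, Il3ra, Il17d, Il28ra and Il33.

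The genes that carry interleukin signals inside the cell were mostly detected in both dyes. Of 16 JAK-STAT genes, red was detected for 14 and none was called (0 of 16). At an adjusted p under 0.05, 0 were higher and 3 lower, near the 21.3% of all genes that pass in either direction. These were Tyk2, a kinase bound to the interleukin-12 and interferon receptors, at −0.83 ± 0.21 (adjusted p = 0.000776), Jak1 at −0.28 ± 0.15 (adjusted p = 0.0108) and Stat3 at −0.39 ± 0.27 (adjusted p = 0.0254). Tyk2 was well above background in red in 0 arrays, and was at −0.13 with normexp and loess (adjusted p = 0.0418) and −1.30 with centered signals (adjusted p = 0.000122). The median of the list was −0.14. With normexp and loess 6 of the 16 were lower at that level and 0 higher, against 8.19% and 3.58% of all probes, and with centered signals 9 were lower and 1 higher (median −0.54), against 17.2% and 29.8%. Stat5a, which acts downstream of Il2rb, was at 0.22 ± 0.19 (adjusted p = 0.0513), and Socs1, a feedback inhibitor, at 0.95 ± 0.91 (adjusted p = 0.0662).

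Of 16 genes of interleukin-1 and interleukin-17 receptor signaling, none was called (0 of 16), 1 was higher and 2 lower at an adjusted p under 0.05, again near the share of all genes, and the median was −0.09. Tollip, an adaptor that restrains IRAK kinases, was at 0.48 ± 0.13 (adjusted p = 0.00109), but at −0.15 and −0.14 under the other treatments of the scans. Sigirr, a receptor-like inhibitor of the group, was at −0.63 ± 0.30 (adjusted p = 0.00651). Traf3ip2, the adaptor of Il17ra and Il17rc, was at −0.38 ± 0.29 (adjusted p = 0.034).

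Of 17 tested partner chains and related cytokines not named Il, none was called (0 of 17), 2 had a mean above 0 with an adjusted p under 0.05 (Lifr and Tnf) and 2 below 0 (Ifngr1 and Tgfb1), near the share of all genes, and the median was −0.07. For Tnf all 8 red values were stand-ins and neither dye was detected in any array (0), and for Tgfb1 red was detected in 0 arrays with 5 stand-ins. With normexp and loess Tnf was at 0.04 and Tgfb1 at −0.0076 (adjusted p = 0.273 and 0.881), and with centered signals at 2.60 and 0.03 (adjusted p = 2.48e-07 and 0.911). Ifngr1 was at −0.16 and −0.14 in these versions and passed in neither (adjusted p = 0.289 and 0.542). Ifng, the Th1 cytokine, was at 0.66 ± 0.78 (adjusted p = 0.123) with red detected in 0 arrays. Of 9 tested T helper transcription factors, 1 was called, Tbx21, the Th1 factor, at 1.83 ± 0.34 (adjusted p = 0.000304), higher in 8 of 8 mice, where 0.31% of all probes were called higher. In all, 1 of the 9 was higher and 2 lower at an adjusted p under 0.05, against 21.3% of all genes in either direction. Tbx21 was at 0.32 with normexp and loess (adjusted p = 0.00557), under 2-fold and so not called, and at 2.48 with centered signals. The median of that list was −0.01. Bcl6 and Ahr were lower (−0.68 and −0.38, adjusted p = 0.0282 and 0.0194), but Ahr was at −0.09 with normexp and loess and did not pass there (adjusted p = 0.0875).

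Marker lists of other cells of the tissue stand beside the receptor values above, and their counts past an adjusted p of 0.05 are to be read against the 21.3% of all genes that passed in either direction. Endothelial markers had a median of −0.43, with 4 of 7 lower at an adjusted p under 0.05 and 0.02 to −0.82 in single mice. Fibroblast markers had a median of −0.24 (2 of 7 lower) and duct markers −0.10 (1 of 5 lower). Macrophage, neutrophil and dendritic cell markers had a median of 0.22 (1 of 11 higher), B-cell markers 0.27 (0 of 10 passed), NK cell markers 0.70 (0 of 5 passed, red detected for 0) and lymph node stroma 0.67 (1 of 6 higher). Mast cell and basophil markers had a median of −0.33 (2 of 5 lower), beta cell markers −0.61 (1 of 7 lower) and acinar markers 0.12 (2 of 8 higher). The other treatments of the scans moved these medians. With normexp and loess and with centered signals, acinar markers had medians of 1.34 and 0.55 (5 of 8 higher at an adjusted p under 0.05 in each). Beta cell markers were at −0.14 and −1.04 (0 and 5 of 7 lower), endothelial markers at −0.01 and −0.17 (0 and 2 of 7 lower), and T-cell markers at 0.08 and 0.72 (3 and 6 of 12 higher, 1 and 2 lower). B-cell markers were at 0.03 and 1.15 (1 and 8 of 10 higher) and NK cell markers at 0.06 and 2.50 (0 and 5 of 5 higher). Lymph node stroma was at 0.10 and 1.55 (2 and 4 of 6 higher, 0 and 1 lower). Macrophage, neutrophil and dendritic cell markers were at 0.03 and 0.22 (0 and 4 of 11 higher). Fibroblast markers were at −0.04 and −0.22 (1 and 1 of 7 lower) and duct markers at −0.14 and −0.44 (1 and 2 of 5 lower). Mast cell and basophil markers were at −0.03 and −0.21 (0 and 1 of 5 lower). The lists themselves were not tested. Whether shifts in these cells had a part in the interleukin receptor values was not tested.

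How the scans were turned into ratios moved many of these values, as the plot of 3 treatments shows. With background-subtracted, centered signals, 21 interleukin genes were called higher and 2 lower (Il17rb and Il17rc). The 21 include Il1b, Il4, Il6, Il10, Il12b, Il2rb, Il2rg and Il7r, and no gene detected in red. Of all probes 5976 were called higher and 1272 lower in that version, and the median of all probes moved from −0.09 to 0.09. With normexp and loess, 0 interleukin genes were called in either direction, and 48 and 19 of all probes.

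**Figure D5:**
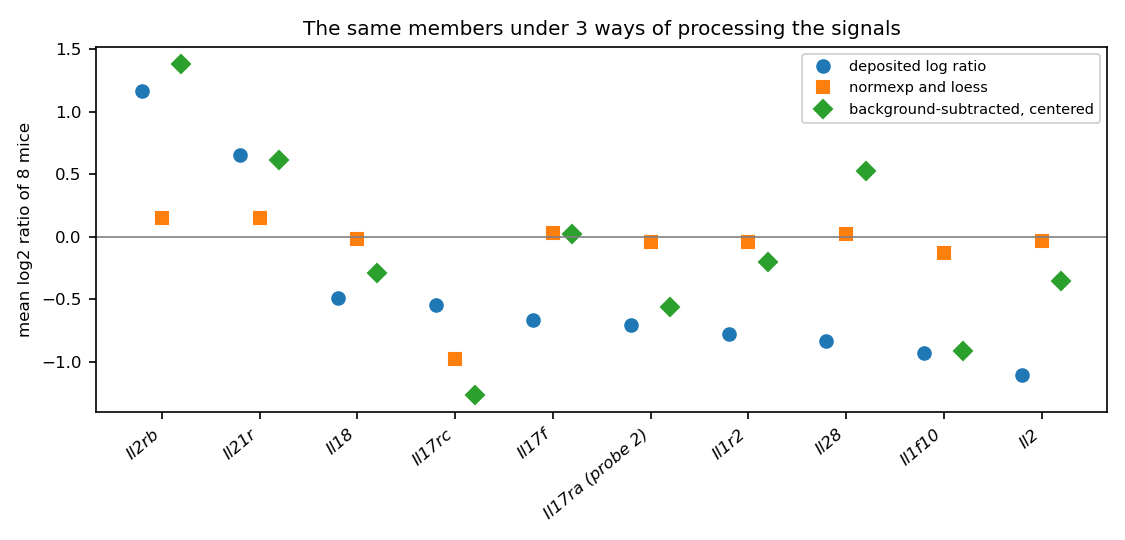
Mean log2 ratio over 8 mice (y axis) of the same members (x axis) from the deposited log ratio, from normexp with loess, and from background-subtracted, centered signals. Il21r stays above 0 (0.65, 0.15 and 0.61) and Il17rc below 0 (−0.55, −0.98 and −1.27) in all 3, whereas Il28 and Il17f cross 0.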

How the data were processed

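Each array was scanned in red and green, and the authors used Agilent Feature Extraction 10.7.3.1 to make the deposited values, a log10 ratio of red over green per spot and, per dye, a processed signal intensity that had been background-subtracted, freed of trends over the array and normalized between dyes (linear and lowess). The authors' files also hold mean and background intensities, used in the alternatives, and flags. Gene symbols and positions (mm8) are those of the files, and current symbols are from RefSeq (matched by name).

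The deposited log10 ratios were multiplied by 3.322 to give log2 ratios, spots of a probe were averaged, and probes with a symbol and a red signal of at least 25 in at least 4 arrays were tested with limma 3.58.1 (R 4.3.3), one-sample against 0, with Benjamini-Hochberg adjustment. A call took a 2-fold change with an adjusted p below 0.01. Single probes were also tested with all 256 sign flips (exact, two-sided). Fits were tested on simulated data first. Further steps and plots used Python 3.11.15, numpy 2.4.6, pandas 2.3.3 and matplotlib 3.10.9.

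Values were given for each mouse where a member was called, or passed an adjusted p of 0.05 and 1.5-fold, or had tested probes 1.5-fold apart from 0 in opposite directions (no member did). Members detected in red, and Il1b, Il2, Il4, Il6, Il7, Il10, Il12b, Il15, Il17a, Il18, Il21, Il33, Il2ra, Il2rb, Il2rg and Il7r, were always named. Further members and list genes were named, and further values per mouse given, to complete a group after their values were seen. The members, lists and rule were chosen with earlier results of these data known. The labels give 1 group of 8 samples, which the study describes as individual mice. The number of arrays limits the precision.

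Alternatives were normexp (offset 50) with loess, background-subtracted centered signals, the ratio of processed signals, other signal filters, irregular spots left out, the plain one-sample statistic, a slide term, leaving out each mouse, other thresholds, other probes and the median over mice. Marker and pathway lists are described by counts and medians, with no test.

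The value of 1 gene of the T helper list is not reported here.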

Additional observations from a re-analysis of the deposited data

Results flagged for a closer look

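In 5 of the 37 members checked, 1 mouse lay apart from the others by more than Dixon's 95% limit for 8 samples, and chance does that in about 1 of 20 groups. Il15 was at −1.49 in mouse 5 (gap 0.757 of the range). Il18bp was at −1.10 in the same mouse (0.58). Il17d was at −0.82 in mouse 7 (0.566). Il28ra was at −1.99 in mouse 8 (0.625). Il7 was at −0.15 in mouse 7, where the other 7 mice were at exactly 0 as set by the software, so that its gap equals the whole range by construction and it is not to be counted against chance. The red value was a stand-in for Il15 in mouse 5 and Il28ra in mouse 8, and for Il7 in all mice. All 5 were on the low side and in mice of slide 2. Arrays 5, 7 and 8 also had the weakest red, with 50.4%, 51.6% and 54.0% of red spots as stand-ins. Array 6 of that slide had 44.4%. What set the values apart was not tested.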

How the results depend on the processing

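No paired analysis was possible because the 8 arrays form 1 group. Of 770 values of single genes under alternatives, 57 changed sign, 11 of them within a slide, 7 on another probe, 4 with the median over mice and 35 otherwise. Genes called higher, 0 as reported, became 21 with centered signals, 6 with the ratio of processed signals and 1 at 1.5-fold (Il21r). Genes called lower, 1 as reported, became 0 with normexp and loess, 2 with centered signals (without Il2), 0 when red had to be detected and 2 at 1.5-fold (Il1r2 and Il2). List genes called, 1 as reported (Tbx21), became 0, 12, 5 and 3 with normexp and loess, centered signals, the processed ratio and 1.5-fold. The cause was not tested. With normexp and loess the sign changed for Il10 (−0.0067), Il10rb (−0.67), Il17f (0.033), Il17rd (−0.13), Il17re (0.041), Il27 (−0.22), Il28 (0.022), Il2rg (−0.015), Il4 (−0.00061), Il6ra (0.047) and Tollip (−0.15). With centered signals it changed for Il10rb (−0.85), Il17f (0.019), Il17rd (−0.42), Il17re (0.078), Il27 (−0.42), Il28 (0.53), Il6ra (0.17) and Tollip (−0.14), and with irregular spots left out for Il12b (−0.0065). With 1 mouse left out, means near 0 crossed it. They ran from −0.047 to 0.22 for Il15, from −0.15 to 0.0197 for Il17d, from −0.15 to 0.032 for Il17re, from −0.13 to 0.048 for Il20rb, from −0.12 to 0.25 for Il2ra, from −0.20 to 0.0503 for Il33, from −0.022 to 0.10 for Il3ra, from −0.018 to 0.10 for Il4 and from −0.18 to 0.0605 for Il6st. The Il2 call held with each mouse left out (adjusted p from 0.000641 to 0.00241 in limma), as did an adjusted p under 0.05 for Il21r and Il1r2. That level was lost without mouse 4 for Il17rc (0.0502), without mouse 3 for Il1f10 (0.0511), and for 4 of 8 mice left out in turn for Il17f (up to 0.0735) and Il28 (up to 0.054), 5 for Il18 (up to 0.0715) and 6 for the second Il17ra probe (up to 0.0769). Red signal near background limits most members.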
